A study of Mus musculus with 8 samples.

Results

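The region described is the stretch of mouse chromosome 7 just past the 3′ end of Ube3a, positions 66566853 to 66600000 (build mm9, 33.1 kb), read on each DNA strand separately. Its members are all array probes whose lower coordinate lies in this stretch: 566 per strand, plus and minus, of 50496 probes in the tiled locus and 53834 on the array. The 2 borders were chosen from the signal of these same arrays, so the level of the window in wild-type tissue is a description and carries no test. The tissue was cerebral cortex, taken at postnatal day 0 from C57BL/6 mice. Its RNA was copied into Cy5-labelled first-strand cDNA and was hybridised to 8 arrays, 1 per sample. First-strand labelling is meant to keep the strands apart. Plus-strand probes are then meant to read RNA that runs in the direction of Ube3a, and minus-strand probes antisense RNA. Some very bright members behaved unlike the rest, as described further on.

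Total RNA was measured in 6 samples. Of these, 2 are wild types, which per the series' design text are littermates of the maternal and of the paternal deletion mutant. They enter the fits as 1 group, and litter was not modelled. The deletion named Snrpn-Ube3a was carried on the maternal chromosome in 1 sample (del s-u/+) and on the paternal chromosome in 1 sample (del +/s-u). The window lies between the genes that this deletion is named for, and its breakpoints are not given in the sources used here. A pair of further samples carries the deletion on the maternal chromosome and lacks the Snrpn promoter on the paternal one; these are called double deletions. The labels name 2 promoter deletions, 0.9 and 4.8, and the title and the genotype of each double-deletion sample name opposite ones, so neither value is assigned to an allele here. A further 2 arrays carry polyA RNA purified from the RNA of the same wild types. Neither single deletion has a replicate. The number of animals per sample is not stated, and p-values therefore describe the spread among these particular samples, which may be technical. The probe names give positions and not genes, so marker genes of cortex or of other cell types were not checked. In such bulk tissue, fewer cells of a type and less RNA per cell cannot be told apart.

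Ube3a encodes an E3 ubiquitin ligase, and in neurons it is transcribed mainly from the maternal chromosome. The paternal chromosome makes a long noncoding RNA that starts near Snrpn, runs through clusters of small nucleolar RNA genes and continues antisense into Ube3a, where it is called Ube3a-ATS. In the RefSeq order of genes (GRCm38.p6), the lncRNA gene Snhg14 spans Ube3a on the opposite strand, and a small pseudogene, Gm25499, is the next gene past the Ube3a end before the small nucleolar RNA genes. Transcription past the 3′ end of a gene is known as read-through. On the plus strand the window therefore holds any RNA that continues beyond Ube3a, and on the minus strand it is the last stretch the antisense RNA crosses before it enters Ube3a.

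Levels are log2 intensities after background correction, relative to the 75th percentile of that array's 3338 probes outside the locus, and the level of a window is the mean over its probes. Probes of both strands sit at the same 566 positions, with a median of 51 bases between starts and lengths of 45 to 60 bases, so neighbouring probes share sequence and are not independent. On the minus strand, 565 members had values on all 8 arrays. By their names, 263 probes per strand are catalogue probes of the array maker, 302 are custom and 1 is neither. Median red intensity over all probes was 104 to 178 on the total RNA arrays and 47 and 46 with polyA RNA. Negative control probes stood between -1.63 and -1.38 on the level scale with total RNA, and at -0.31 and -0.29 with polyA RNA. These control levels mark the floor of the scale.

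In wild-type total RNA, plus-strand signal did not end at the border and was lower, with exceptions, away from the gene. Over catalogue probes, the last 1-kb bin inside Ube3a had levels of 2.40 and 2.52 in the 2 wild types, and the next bin, just outside, had 1.43 and 1.12. The bin that starts 12 kb past the end had -0.18 and -0.34, and the one at 25 kb, among the lowest, had -1.30 and -1.28, close to the negative controls. The decline was not even. The bin at 9 kb stood at 1.31 and 1.15, that at 22 kb at -0.02 and -0.29, and that at 30 kb at -0.40 and -0.45. Over all probes, the plus-strand window of 33.1 kb had a mean of 0.35 ± 0.09 (SD, n = 2), against 1.81 and 1.78 in the window of the same length that precedes it inside Ube3a.

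The minus strand ran the other way. Over catalogue probes, it stood at 2.32 and 2.24 in the wild types in the bin at 32 kb, on the Snrpn side, and at 2.60 and 2.52 in the bin just outside the window. It was 0.36 and 0.38 at 28 kb, lay between 0.18 and 1.79 in the bins from 0 to 28 kb, and was 0.42 and 0.45 in the bin next to Ube3a. In the last 1-kb bin inside Ube3a it was lower still, at 0.24 and 0.21, and in the bin before that it was 0.43 in both. Further inside Ube3a it stood higher again, with 1.98 and 2.00 at 4 kb before the end. Over all probes, the minus-strand window had a mean of 1.43 ± 0.01 (SD, n = 2), against 4.70 and 4.51 in the next window towards Snrpn and 1.70 and 1.75 in the window before it, inside Ube3a. Over catalogue probes the window had a mean of 1.01 ± 0.014 (SD, n = 2). The window towards Snrpn had 2.09 and 1.98, and that inside Ube3a 1.18 and 1.22. The window was thus below both neighbours with either set of probes, but the 2 gaps towards Snrpn cover different stretches. Past 36 kb, the bins out to 48 kb held too few catalogue probes for a value. Over all probes, the wild types stood at 2.51 and 2.34 in the bin at 34 kb and at 5.51 and 5.34 in that at 38 kb.

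**Figure D1:**
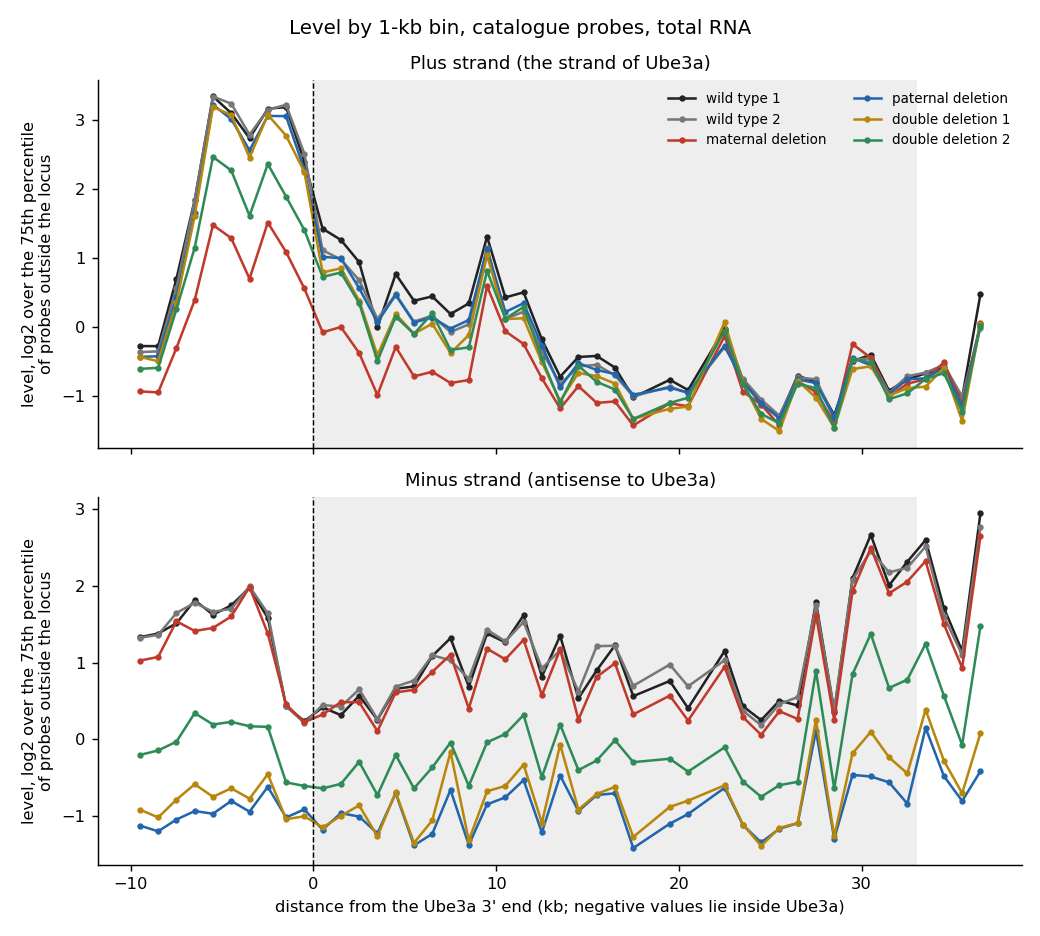
Mean level of catalogue probes in 1-kb bins (log2, relative to the 75th percentile of outside-locus probes) against the distance from the Ube3a 3′ end in kb, for the plus strand (top) and the minus strand (bottom), 1 line per total RNA array, with the window shaded. On the plus strand the maternal deletion lies below the other arrays next to the 3′ end, at -0.07 against 1.43 and 1.12 in the wild types, and meets them towards the far side. On the minus strand the paternal deletion and double deletion 1 lie lowest, double deletion 2 between them and the wild types.

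The question for the maternal deletion is which RNA of the window depends on the maternal chromosome. Plus-strand signal was lower in the maternal deletion, and most so next to Ube3a. Its window level was -0.11, against 0.41 and 0.29 in the wild types, 0.27 in the paternal deletion and 0.12 and 0.15 in the double deletions, so it was the lowest of the 6 arrays. Median intensity of the 566 plus-strand probes was 78 in the maternal deletion, 136.5 and 118.5 in the wild types, and 111 to 117.5 on the other 3 arrays, over a local background of 36 to 38. The difference from the wild types was -0.46 (SE 0.08), or 72.5% of the wild-type level. In limma, with Benjamini-Hochberg adjustment over 110 windows of both strands and the double deletions as 1 group, this missed the threshold of 0.05 (adjusted p = 0.0599). With the double deletions as 2 separate groups, where only the 2 wild types give a spread, limma called it lower (SE 0.07, adjusted p = 0.0236, beside 10% of windows called lower), and so it did with either double deletion left out, which leaves the same spread. Over catalogue probes it was -0.51 (limma adjusted p = 0.0494, called, as were 1% of windows).

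The plus-strand difference was graded along the window. In segment 1, the 8.29 kb next to Ube3a, the maternal deletion had a level of -0.18, against 0.97 and 0.72 in the wild types. In segment 2 it had 0.18 against 0.76 and 0.59, and in segment 3 it had 0.15 against 0.36 and 0.31. In segment 4 all 6 total RNA arrays lay between -0.68 and -0.53, and the maternal deletion at -0.58 was inside that range. The differences from the wild types were -1.03 (SE 0.14), -0.50 (SE 0.10), -0.18 (SE 0.08) and -0.04 (SE 0.06) in the same order. Segment 1 thus stood at 49.0% of wild type, with a limma adjusted p of 0.0705 over 428 segments, or 0.0409 with separate double deletions. No segment of either strand was called lower in the maternal deletion in the main fit, in the window or in the locus (0% called).

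The step from the window to the next window on the same strand does not depend on the scale between arrays. On the plus strand this step was 0.03 in the maternal deletion and 0.47 and 0.43 in the wild types. It was 0.58 in the paternal deletion and 0.47 and 0.34 in the double deletions, so the maternal deletion alone of the 6 had almost none. The difference from wild type was -0.42 (SE 0.07, limma adjusted p = 0.161 over 106 steps), which was called with separate double deletions (SE 0.03, adjusted p = 0.0294, beside 6.6% of steps called lower). In the catalogue probes it was -0.47 and was called (limma adjusted p = 0.0454, beside 3.26% of steps). These probes were too few for a value in the 1-kb bins from 37 to 48 kb, so their step covers only part of the next window.

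Single probes showed the same order. Of 566 plus-strand members, 470 (83%) were lower in the maternal deletion than in both wild types, against 53.7% of all 53767 probes with values on every array. By segment from the Ube3a end, the shares were 98.1%, 90.5%, 80.3% and 61%. No plus-strand member of 509 tested was called lower by limma (0% of all tested probes called in either direction), while 207 had an unadjusted p under 0.05 and were lower, as were 2.26% of all tested probes. With separate double deletions it called 120, beside 1.2% of all tested probes. The median change of tested plus-strand members was -0.38, beside -0.07 over all tested probes. The probe with the largest difference, A_67_P14808507, is also the one nearest to the border (66566853 to 66566909). It stood at -0.86 in the maternal deletion, 1.57 and 1.34 in the wild types, 1.44 in the paternal deletion and 1.10 and 0.45 in the double deletions. Its difference of -2.32 from wild type did not pass the test (limma adjusted p = 0.112).

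The minus strand differed less in the maternal deletion. The window was at 1.25, below 1.42 and 1.43 in the wild types, a difference of -0.18 (SE 0.31, limma adjusted p = 0.93). With separate double deletions limma called it lower (SE 0.03, adjusted p = 0.0325), at 88.3% of wild type. Its 4 segments differed by -0.12, -0.23, -0.21 and -0.17. All 565 minus-strand members were well above background in the maternal deletion and in both wild types. The minus-strand member with the largest difference went the other way. RC_A_67_P14808516 (66567868 to 66567924) stood at 2.49 in the maternal deletion and at 0.87 and 0.88 in the wild types, which did not pass the test.

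**Figure D2:**
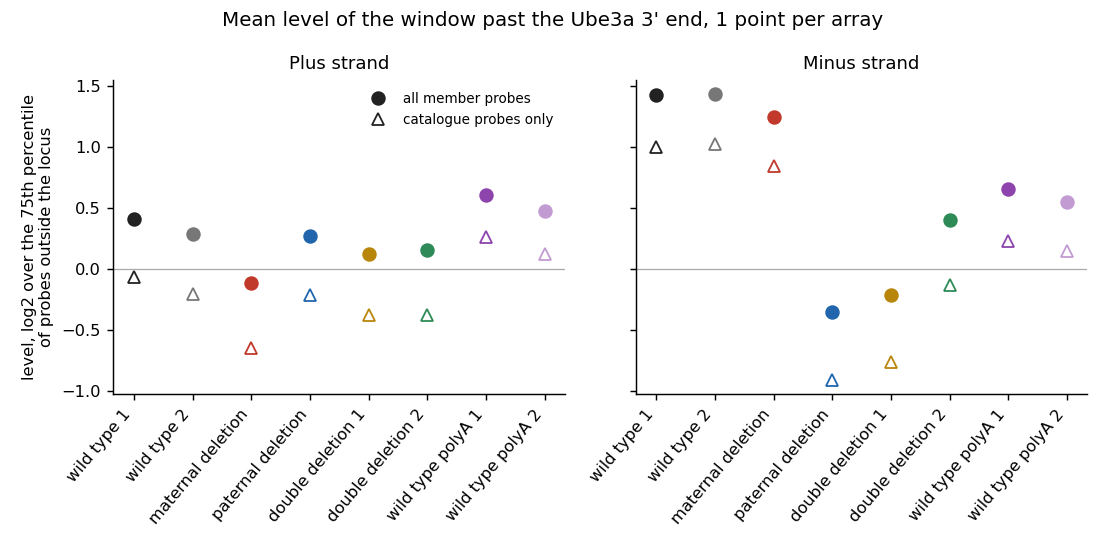
Mean level of the window (log2, relative to the 75th percentile of outside-locus probes) on each array, 1 column per array, with circles for all member probes and open triangles for catalogue probes only; the left panel is the plus strand and the right panel the minus strand. The maternal deletion is the lowest plus-strand point at -0.11, and the paternal deletion the lowest minus-strand point at -0.35.

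The paternal deletion asks what of the window depends on the paternal chromosome, and there the minus strand was lower. The minus-strand window had a level of -0.35, against 1.42 and 1.43 in the wild types and 1.25 in the maternal deletion. Median intensity of its probes was 46, over a local background of 36, against 322 and 313.5 in the wild types and 311 in the maternal deletion. Well above background were 58.05% of minus-strand members, against 100% in both wild types. The difference from wild type was -1.78 (SE 0.31), or 29.0% of the wild-type level on this scale with its offset. It missed the threshold with pooled double deletions (limma adjusted p = 0.0986) and was called with separate ones (SE 0.03, adjusted p = 0.000121, beside 19.1% of windows called lower). Probes at background cannot show a lower level, and on this array 58.05% of members stood clear of it. With background-subtracted signal, which carries no offset, the difference from wild type was -3.86.

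All 4 segments of the minus strand were lower in the paternal deletion. The differences from wild type were -1.59, -1.73, -1.51 and -2.29 from the Ube3a end, at SE 0.23 to 0.47, with a limma adjusted p of 0.119 for each in the main fit and between 0.0007 and 0.00145 with separate double deletions. Segment 4, on the Snrpn side, was at -0.32 against 1.99 and 1.93 in the wild types. The step to the next window was 0.05 in the paternal deletion and -3.28 and -3.08 in the wild types, so over all probes the rise towards Snrpn was not seen there. That difference of 3.23 (SE 0.78) had a limma adjusted p of 0.133, and was called with separate double deletions (SE 0.11, adjusted p = 0.00503, beside 14.2% of steps called higher). Over catalogue probes the steps were -1.09 and -0.96 in the wild types and -0.48 in the paternal deletion, so a rise remained over the positions they cover. The difference was 0.55 (SE 0.17, limma adjusted p = 0.215). Catalogue probes were too few for a value in the 1-kb bins from 37 to 48 kb. This step is therefore not like for like with that over all probes.

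Of 565 minus-strand members, 538 (95.2%) were lower in the paternal deletion than in both wild types, against 42.9% of all probes. Among the catalogue probes it was 262 of 263. Limma called none of them lower with pooled double deletions (0% of all tested probes), and 486 had an unadjusted p under 0.05 and were lower, as were 14.2% of all tested probes. With separate double deletions it called 487 of 565 members (86.2%), beside 14.2% of all tested probes. The probe with the largest difference, RC_CUST_6445_PI425394930 (66599425 to 66599484), stood at -0.58 in the paternal deletion, 6.24 and 6.00 in the wild types, 5.94 in the maternal deletion and 1.96 and 4.61 in the double deletions. On this probe the 2 double deletions were therefore far apart, and both lay between the paternal deletion and the other arrays.

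On the plus strand, the paternal deletion had a window level of 0.27, just below 0.41 and 0.29 in the wild types. The difference was -0.08 (SE 0.08, limma adjusted p = 0.891), and the 4 segments differed by -0.16 to -0.03. These values depend on the scale: with arrays scaled on all probes, most of which lie in the locus, the plus-strand window differed by 1.18 and was called higher (limma adjusted p = 0.0271), and by 0.37 after quantile normalization (adjusted p = 0.101).

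**Figure D3:**
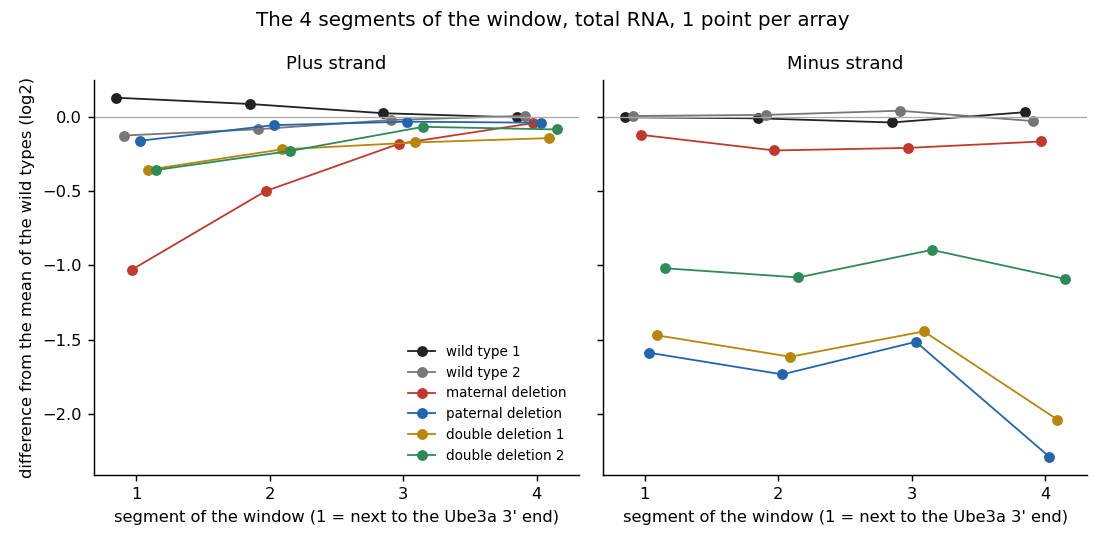
Difference of each total RNA array from the mean of the 2 wild types (log2) in each segment of the window, numbered from the Ube3a end, with 1 point per array; plus strand left, minus strand right. On the plus strand the maternal deletion runs from -1.03 in segment 1 to -0.04 in segment 4. On the minus strand the paternal deletion stays between -2.29 and -1.51.

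The double deletions carry the maternal deletion and, in addition, lack the paternal Snrpn promoter, and all values against wild type here share the wild types with the comparisons above. Their minus-strand signal was lower than in wild type, by unequal amounts. The window was at -0.21 in double deletion 1 and 0.40 in double deletion 2, against 1.42 and 1.43 in the wild types. Median intensity of the minus-strand probes was 67 and 135. The mean difference from wild type was -1.33 (SE 0.25, limma adjusted p = 0.061), called with separate groups (SE 0.02, adjusted p = 0.000174, beside 29.1% of windows called lower) and over catalogue probes (-1.46, adjusted p = 0.0449, beside 7% of windows). The SE of the pooled fit holds the difference between the 2 double deletions as well as sample noise.

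Segments 1 and 2 of the minus strand passed the main test and fell, by 1.24 (SE 0.19, limma adjusted p = 0.0424) and 1.35 (SE 0.22, adjusted p = 0.0473), beside 3.97% of segments of the locus called lower. Without wild type 1 they lost the call (limma adjusted p = 0.304 for both), and likewise without wild type 2 (0.309 for both). Segment 1 was at -0.56 and -0.11 in the double deletions and at 0.91 in each wild type. Segments 3 and 4 differed by -1.17 (adjusted p = 0.071) and -1.56 (adjusted p = 0.123). In segment 4 the double deletions were at -0.07 and 0.87, the widest gap between them in the window. In the next window towards Snrpn they were at 1.11 and 3.30.

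Limma called 100 of 565 minus-strand members lower in the double deletions (17.7%), beside 2.88% of all tested probes, and 5 of 509 plus-strand members. With separate groups it called 500 minus-strand members (88.5%), beside 21.1% of all tested probes, and without either wild type it called 0, with 1 wild type left as reference. Both double deletions were lower than both wild types at 519 of 565 minus-strand positions (91.9%), against 43.1% of all probes. RC_CUST_6447_PI425394930 (66599645 to 66599704), the member with the largest difference, stood at 0.81 and 2.84 in the double deletions and at 5.28 and 5.27 in the wild types, a difference of -3.44 (limma adjusted p = 0.0903).

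Against the maternal deletion, which they share, the double deletions show what the added promoter deletion goes with. Plus-strand signal was higher in both double deletions than in the maternal deletion, and most so next to Ube3a. In segment 1 they stood at 0.49 each, against -0.18 in the maternal deletion and 0.97 and 0.72 in the wild types, so they lay between. In segment 4 they were at -0.68 and -0.62, slightly below the maternal deletion at -0.58. The differences from the maternal deletion by segment were 0.67 (SE 0.14), 0.27 (SE 0.10), 0.06 (SE 0.08) and -0.07 (SE 0.06). None passed the test (limma adjusted p of 0.512 or more, and 0.0744 for segment 1 with separate groups). Both double deletions were above the maternal deletion at 94.9%, 73.5%, 39.3% and 17.7% of plus-strand positions by segment, against 27.8% of all probes. Over the whole window the difference was 0.25 (SE 0.08, limma adjusted p = 0.486). The plus-strand step to the next window, which is free of the scale, was larger than in the maternal deletion by 0.38 (SE 0.07, limma adjusted p = 0.0897), and was called with separate groups (SE 0.03, adjusted p = 0.026, beside 17% of steps called higher). The plus-strand member with the largest difference went the other way. A_67_P01527099, 29.7 kb past the end, stood at 1.30 in the maternal deletion, -0.92 and -0.84 in the double deletions and -0.79 and -0.84 in the wild types.

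Minus-strand signal of the double deletions differed from the maternal deletion by -1.16 (SE 0.31, limma adjusted p = 0.478), which was called with separate groups (SE 0.03, adjusted p = 0.000911, beside 18.2% of windows called lower). In that fit limma called 435 minus-strand members lower than in the maternal deletion, beside 15.7% of all tested probes, and 76 plus-strand members higher, beside 3.53%. Both double deletions were below the maternal deletion at 514 of 565 positions (91%), against 42.6% of all probes. Within the last 8.29 kb of Ube3a itself, plus-strand levels were 0.76 in the maternal deletion, 2.19 and 1.58 in the double deletions and 2.33 and 2.35 in the wild types. The order of the arrays there, with double deletion 2 below double deletion 1, was not kept in the mean of segment 1, where both stood at 0.49. The probe nearest to the border still had it, at 1.10 in double deletion 1 and 0.45 in double deletion 2. Over all probes they stood at 0.82 and 0.80 in the 1-kb bin at 0 kb, and at 2.31 and 2.33 in that at 3 kb.

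The difference between the strands at the same positions compares 2 values of 1 array and is free of any scale between arrays. Over the window, the minus strand exceeded the plus strand by 1.01 and 1.15 in the wild types and by 1.36 in the maternal deletion. It was 0.63 below the plus strand in the paternal deletion (a difference of -0.63) and stood at -0.33 and 0.25 relative to it in the double deletions. Against wild type the strand difference shifted by -1.71 in the paternal deletion (SE 0.32, limma adjusted p = 0.0856 over 55 windows) and by -1.12 in the double deletions (SE 0.26, adjusted p = 0.138). Both were called with separate double deletions (adjusted p = 0.0018 and 0.00207), where 58.2% and 69.1% of windows were called lower, and 0% of windows were called in the main fit. The shift of 0.28 in the maternal deletion was not called in either fit (adjusted p = 0.992 and 0.098).

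Position by position, the minus strand was above the plus strand at 432 and 461 of 565 positions in the wild types (76.5% and 81.6%), at 497 in the maternal deletion (88%) and at 149 in the paternal deletion (26.4%). In the double deletions it was 231 and 343 (40.9% and 60.7%). The level of a probe depends on its sequence, so these shares compare arrays and do not measure which strand had more RNA. In segment 1 the wild types had 48.4% and 60% of positions higher on the minus strand. There the maternal deletion had 85.8%, the paternal deletion 8.4% and the double deletions 12.3% and 23.9%. The 2 single deletions thus lay on opposite sides of the wild types in this segment.

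**Figure D4:**
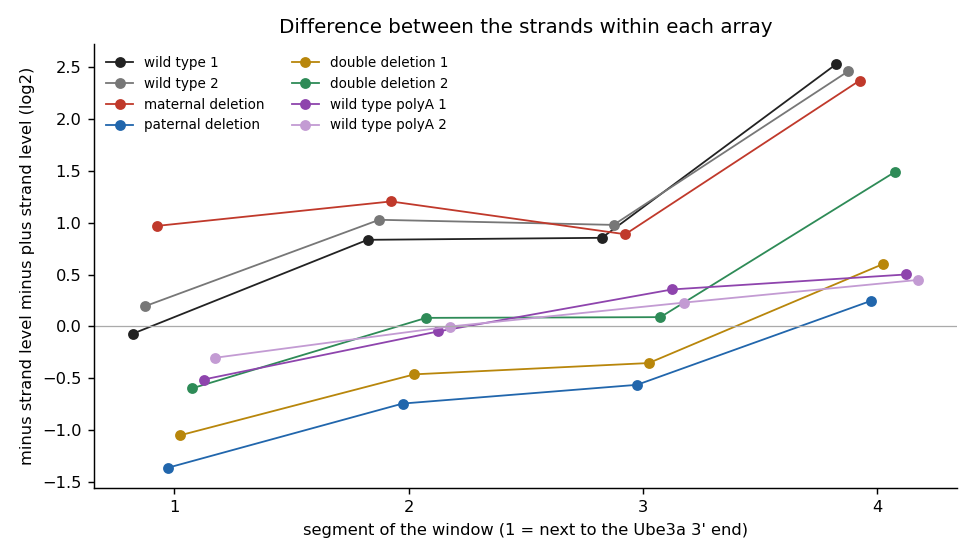
Minus-strand level minus plus-strand level (log2) within each array, by segment of the window numbered from the Ube3a end, 1 point per array. In segment 1 the maternal deletion is highest at 0.97 and the paternal deletion lowest at -1.36, with the wild types at -0.07 and 0.20 between them. In segment 4 the wild types reach 2.53 and 2.46 and the polyA arrays 0.50 and 0.45.

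PolyA RNA asks which of this RNA is polyadenylated. The 2 polyA arrays were dim, with an intensity of 47 and 46 at the 75th percentile of outside-locus probes over a local background of 34, so the scale of levels rests there on values close to background. The difference between the strands does not use that scale, but with a median intensity of 47.25 to 53 on both strands of the window and an offset of 50 it is drawn towards 0. The minus strand exceeded the plus strand by 0.05 and 0.08 in polyA RNA, against 1.01 and 1.15 in total RNA of the same wild types. This strand difference fell by 1.02 (SE 0.06, limma adjusted p = 4.21e-05), beside 70.9% of windows called lower in the same comparison. In alternatives chosen after seeing the data, the fall was 1.44 with an offset of 1, 1.62 with background-subtracted signal and 0.87 over probes well above background on all 4 arrays, each called. How much of it comes from the dim signal was not tested. It fell in each segment, by 0.47, 0.96, 0.62 and 2.02 from the Ube3a end (limma adjusted p between 9.79e-06 and 0.0194), beside 67.8% of segments called lower.

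On the outside-locus scale, the minus-strand window fell by 0.83 (SE 0.04, limma adjusted p = 0.000497), from 1.42 and 1.43 to 0.65 and 0.55, beside 42.7% of windows called lower. The direction turned with arrays scaled on all probes, where it was higher by 0.52 and called (limma adjusted p = 3.4e-17). The plus-strand window stood at 0.60 and 0.47 in polyA RNA and at 0.41 and 0.29 in total RNA. Its difference of 0.19 (SE 0.07) was not called (limma adjusted p = 0.0793), but was called with the wild-type number as a block, which pairs each polyA sample with its total RNA (SE 0.02, adjusted p = 0.00349), and without polyA replicate 2 (0.25, adjusted p = 0.0387). Over probes well above background on all 4 arrays it turned to -0.16 (adjusted p = 0.0823). By segment, the plus strand differed by -0.15, 0.10, 0.23 and 0.63, and segments 3 and 4 were called higher (limma adjusted p = 0.00512 and 0.000225), beside 42.5% of segments called higher. In segment 4 the polyA levels were 0.09 and 0.11, with the negative controls of those arrays at -0.31 and -0.29, so the signal behind this value is dim. The mean level of this segment in total RNA, -0.53, lies below those controls. A segment without any polyA RNA would therefore read higher too, and this call cannot show more polyA RNA. Segment 3 had a mean of 0.34 in total RNA over all probes. Its catalogue probes, however, stood at -0.78 in total RNA, also below those controls, and at -0.08 in polyA RNA. The same limit therefore applies to that part of segment 3.

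Among single members, limma called 383 of 565 on the minus strand lower in polyA RNA (67.8%), beside 40.9% of all tested probes, and 88 of 480 on the plus strand. It called 180 of 480 plus-strand members higher (37.5%), beside 32.1% of all tested probes, and 41 minus-strand members. Members whose total RNA level lies below the polyA negative controls would read higher without any polyA RNA, and these were not counted apart. The largest minus-strand difference was at RC_A_67_P14808651 (66597590 to 66597643), 30.7 kb past the end, with 6.26 and 5.90 in total and 0.75 and 0.42 in polyA RNA (-5.50, limma adjusted p = 0.00011). On the plus strand it was at CUST_6312_PI425394930 (66584795 to 66584854), with 8.54 and 8.31 in total and 5.06 and 4.52 in polyA RNA (-3.64, limma adjusted p = 0.000387). That probe is also the brightest plus-strand member in wild type.

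By median, a small set of very bright members behaved unlike the rest. The brightest members by wild-type level, 57 on each strand, were compared with the rest, and 54 and 53 of them were custom probes. Their median level was 4.72 (plus strand) and 5.45 (minus strand), and their median difference from wild type was -0.14 in the paternal deletion on the minus strand, against -1.80 for the other 508 members. In the double deletions these medians were -0.14 and -0.09, against -1.73 and -1.13. The set is mixed. On the minus strand it starts at a wild-type level of 3.44, and so it also holds members with the largest differences. Among them are RC_CUST_6445_PI425394930 (-6.70 in the paternal deletion) and RC_CUST_6447_PI425394930 (-3.44 in the double deletions). RC_CUST_6246_PI425394930 (66577535 to 66577594), the brightest minus-strand member, stood between 8.37 and 8.62 on all 8 arrays. With total RNA its spots read 57034 to 65051, close to the highest value of the scans, 65508, so it could hardly show a higher level there. Across same-position pairs, plus and minus levels of custom probes had a Pearson r of 0.69 to 0.86 by array (301 pairs), and those of catalogue probes -0.05 to 0.26 (263 pairs), a description in which neighbouring probes and base composition are shared. Window means over all probes include the bright members with small differences, which draws the differences between arrays closer to 0. The catalogue probes alone gave -1.92 against -1.78 for the minus strand of the paternal deletion, and -0.51 against -0.46 for the plus strand of the maternal deletion.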

How the data were processed

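The deposited scanner files hold red intensity per spot on a linear scale, made with Agilent Feature Extraction 10.7.3.1 on build mm9 per the file headers (the submitters' processing notes name 10.9). Per the labels, labelling used 15 µg of total RNA or, for polyA arrays, 750 ng purified from 30 µg and supplemented with bacterial rRNA. All arrays share 1 slide and 1 scan. The members and all lists were chosen with earlier results of these data known. Red median intensities were background-corrected with normexp (offset 50, limma 3.58.1, R 4.3.3), log2-transformed and shifted by the 75th percentile of each array's outside-locus probes. Spots with outlier marks were left out and 5 member values were saturated. The deposited per-spot marks of the scanner software, 0 or 1, decided what was well above background, and a probe was tested if it was so on every array of at least 1 group. Windows, their segments, steps between windows, strand differences and probes were fitted with limma (lmFit, eBayes, two-sided, Benjamini-Hochberg over the locus or array, threshold 0.05), with both double deletions in 1 group. For polyA RNA, a separate fit took the 4 wild-type samples. Named probes are the 3 brightest of each strand, those nearest each border and those with the largest change per comparison. Not all of them are printed. The fits were tested on simulated data with independent noise per probe and equal shifts in both double deletions. That test does not cover noise shared by neighbouring probes or unequal double deletions. The lists of genes could not be applied, since probes carry positions only. The deposited series matrix, an alternative, holds the same intensity times 1 factor per array. Same-numbered wild types share their RNA, per the series' design text. Their deviations correlated at 0.465 over members and at 0.211 over all probes with values on all arrays, with only 2 pairs.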

Additional observations from a re-analysis of the deposited data

How the results depend on the processing

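All differences below are log2, tested with limma. In the genotype comparisons the choice that changed most calls was how the double deletions enter the fit. As separate groups, the differences stayed as they were and, among the results listed here, these were called in addition: the minus-strand window in the maternal deletion (-0.18), the paternal deletion (-1.78), the double deletions (-1.33) and the double against the maternal deletion (-1.16); the plus-strand window of the maternal deletion (-0.46) and its segment 1 (-1.03); minus-strand segments 1 to 4 of the paternal deletion (-1.59, -1.73, -1.51 and -2.29) and segments 3 and 4 of the double deletions (-1.17 and -1.56); the steps to the next window of the maternal deletion (plus strand, -0.42), the paternal deletion (minus strand, 3.23), the double against the maternal deletion (plus strand, 0.38) and the double deletions (minus strand, 1.06); and the strand differences of the paternal (-1.71) and double deletions (-1.12). Members called then numbered 120 (plus, lower, maternal deletion), 487 (minus, lower, paternal deletion), 500 (minus, lower, double deletions), 435 (minus, lower, double against maternal deletion) and 76 (plus, higher, double against maternal deletion), beside 1.2%, 14.2%, 21.1%, 15.7% and 3.53% of all tested probes. With all 8 samples in 1 fit, the plus-strand window of the maternal deletion (-0.46) and the minus-strand windows of the paternal (-1.78) and double deletions (-1.33) were called.

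With 1 sample left out in turn, the windows ranged from -0.52 to -0.40 (plus, maternal deletion), -0.19 to -0.17 (minus, maternal), -1.79 to -1.78 (minus, paternal), -1.64 to -1.03 (minus, double) and -1.46 to -0.85 (minus, double against maternal). Segment 1 of the plus strand in the maternal deletion ranged from -1.16 to -0.90. Minus-strand segments of the paternal deletion ranged from -1.59 to -1.58, -1.74 to -1.72, -1.55 to -1.47 and -2.32 to -2.26, and those of the double deletions from -1.47 to -1.02, -1.61 to -1.08, -1.44 to -0.90 and -2.04 to -1.09. Steps ranged from -0.44 to -0.40 (plus, maternal), 3.13 to 3.33 (minus, paternal), 0.28 to 1.85 (minus, double), 0.31 to 0.44 (plus, double against maternal), -0.11 to 0.082 (minus, maternal, turned without wild type 2) and -0.11 to 0.0225 (plus, double, turned without double deletion 2). Strand differences ranged from -1.77 to -1.64 (paternal) and -1.41 to -0.83 (double). Members called ranged from 0 to 121 (maternal, plus), 0 to 487 (paternal, minus), 0 to 506 (double, minus), 0 to 456 (double against maternal, minus) and 0 to 61 (the same, plus). The 0 counts are those without either wild type, where 0% of all tested probes were called in these directions. Without a double deletion the shares of all tested probes were 1.21%, 14.1%, 16% to 25.1%, 12.5% to 18.4% and 3.86% to 4.25% in the same order.

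The scale between arrays turned 3 windows when all probes set it: plus strand of the paternal (1.18) and double deletions (0.26), and minus strand in polyA RNA (0.52). Over all 18 settings, the minus-strand window of the paternal deletion kept its direction but ranged from -3.86 to -0.53, so its size depends on the processing. Quantile normalization turned the plus strand of the paternal deletion (0.37) and called the minus strand of the paternal (-1.45) and double deletions (-1.12). Scaled on detected outside probes, the double deletions were called on the minus (-1.42) and plus strand (-0.30). With all probes as scale, members called numbered 2 (maternal, plus), 137 (paternal, minus), 224 (double, minus), 59 and 21 (double against maternal, minus and plus), 82 (polyA, minus, lower) and 446 (polyA, plus, higher), beside 0.233%, 9.58%, 10.9%, 7.86%, 0.676%, 17.3% and 73.3% of all tested probes in the same order. Other alternatives that brought a call were normexp with offset 1 (-0.70) and the median of probes (-0.70) for the plus strand of the maternal deletion, background-subtracted signal (-3.86) for the minus strand of the paternal deletion and, chosen after seeing the data, catalogue probes alone for the maternal deletion on the plus strand (-0.51) and the double deletions on the minus strand (-1.46).

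The plus-strand window in polyA RNA was the least stable value. It was called higher with the replicate block (0.19), 10-kb borders (0.26), background-subtracted signal (0.74), catalogue probes (0.33), no background correction (0.35), offset 1 (0.64), quantile normalization (0.28), all probes as scale (1.53) and detected outside probes as scale (0.56), ranged from 0.13 to 0.25 with 1 sample left out, and turned with detected probes only (-0.16) and with the series matrix (-0.12). The replicate block changed no other call among the windows and strand differences of this comparison. The cause of these changes was not tested. Dim probes limit depth, since levels near the negative controls cannot show a lower one.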
